A study of Mus musculus with 12 samples.

Results

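The comparison set fibroblasts made to express MyoD against the same fibroblasts made to express myogenin, and rests on 6 of the 12 arrays of the series, 3 labelled MyoD (replicates 3, 4 and 5) and 3 labelled 2C5/7-myogenin (replicates 2, 3 and 6). All cells came from 2C5/7, a line derived from mouse embryonic fibroblasts that is myoD-/-;myf5-/-, so that neither gene makes a working product of its own. A retrovirus carried the factor and the green fluorescent protein hrGFP on 1 transcript driven by the viral LTR, and the control cells received hrGFP with no factor. Fluorescent cells were sorted to 75 to 85% purity without cloning after growth on plastic in DMEM with 10% FCS, and total RNA was hybridised to MG_U74Av2 oligonucleotide arrays. The labels name the myogenin and hrGFP cells as controls for MyoD and Myf5. The labels do not say whether replicates were separate cultures. The p-values here measure only the spread between arrays, which may be technical and was estimated over all 12 arrays of the 4 groups. The median deposited signal of these 6 arrays ran from 20.9 to 33.0, and their number limits the precision. In such bulk RNA, fewer cells of a type and less RNA per cell cannot be told apart.

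MyoD and myogenin are basic helix-loop-helix transcription factors of the same family. Each pairs with an E protein and binds the E-box, a short DNA motif found in the promoters and enhancers of many muscle genes. MyoD is known as a factor that commits cells to the muscle lineage and can turn fibroblasts into muscle, while myogenin is itself a MyoD target that acts later, in the differentiation of myoblasts into fibres.

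With MyoD, genes of the contractile apparatus were higher than with myogenin: the actin gene Actc1, 4 troponin genes (Tnnt1, Tnnc1, Tnnt3 and Tnnc2), 2 myosin light chain genes (Myl1 and Mylpf) and the embryonic myosin heavy chain gene Myh3. With them stood Sgca, Smyd1 and Chrna1, a sarcolemma protein, a methyltransferase of muscle and a subunit of the acetylcholine receptor. With myogenin, the collagen genes Col1a1 and Col6a3, the basement membrane gene Hspg2, Raly, Anp32a, Dlg4, Hoxb8 and Hoxb9 were higher. In all, 35 of the 8486 probe sets tested (0.412%) were called, 22 of them higher with MyoD (0.259%) and 13 higher with myogenin (0.153%), at a p adjusted over all probe sets under 0.05. The called probe sets with a single gene symbol cover 20 genes in the first direction and 9 in the second. At an unadjusted p under 0.05, 1172 probe sets (13.8%) passed, 641 of them higher with MyoD. The 3 arrays of each group did not overlap after normalization in any of the 35, against 22.4% of all probe sets tested. The calls rest on the same values, so this is not separate support for them.

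These calls are not equally firm. The 3 myogenin arrays share a chip lot and a hybridisation day that no other array has, so array batch and myogenin cannot be told apart in this comparison. With the batch as a random block, 2 of the 35 remained, Tnnt1 and Raly, and with the 6 arrays fitted on their own 3 remained. The random block cannot remove a shift shared by all 3 myogenin arrays, so it leaves such a shift untested. The 3'-to-5' signal ratio of the actin control probe sets was 25.7 in MyoD replicate 5 and 37.6 in hrGFP replicate 5, against 0.97 to 1.11 in the other arrays, which marks a target biased to the 3' end of transcripts. Without the arrays numbered 5, 21 probe sets were called, 9 higher with MyoD and 12 higher with myogenin, and 14 of them were among the 35. Leaving out 1 of the 6 arrays gave 25 calls without MyoD 3, 5 without MyoD 4, 10 without MyoD 5, 3 without myogenin 2, 8 without myogenin 3 and 9 without myogenin 6. All 35 kept their direction in each of the 16 alternative settings in which they had a value.

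**Figure D1:**
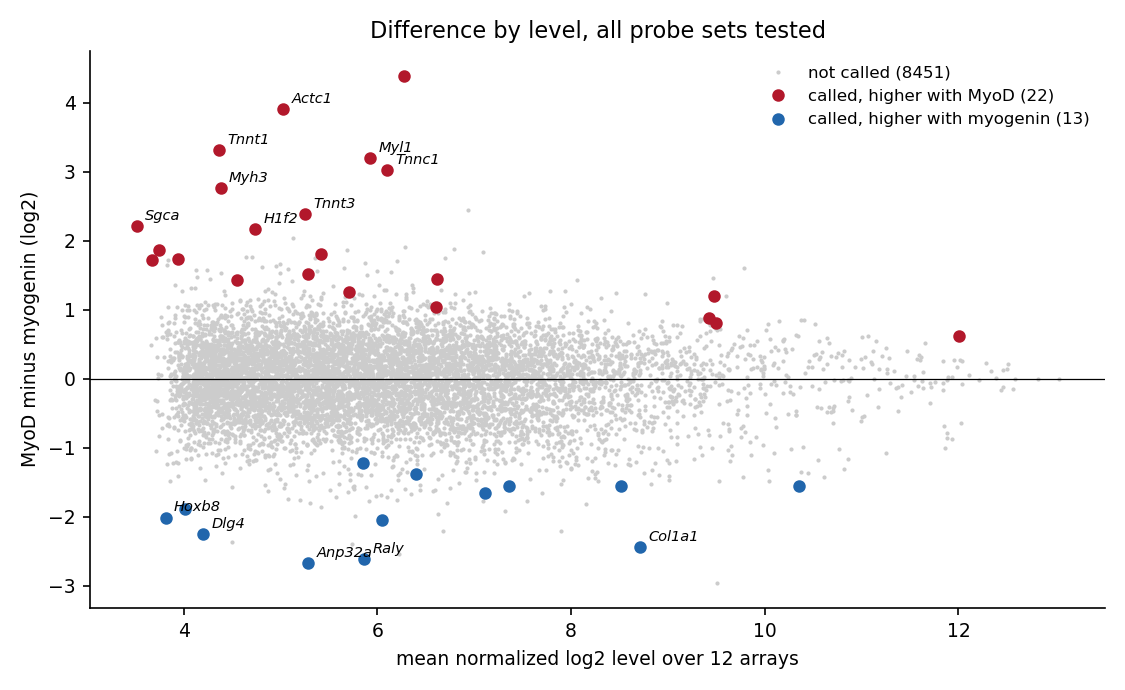
Difference between MyoD and myogenin (log2, vertical axis) against the mean normalised log2 level over 12 arrays (horizontal axis), 1 point per probe set, for the 8486 tested. Red points are the 22 called higher with MyoD and blue points the 13 called higher with myogenin; the named red points of largest difference are genes of the contractile apparatus, and the highest red point is a probe set assigned to more than 1 gene.

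Both factors are known to bind the E-box, and the promoters of 5 called muscle genes that hold one of its muscle forms are shown, with that of Raly. They were chosen by these motifs. No window is shown for Tnnt3, also called. The windows of Actc1, Tnnc1, Myh3, Sgca and Smyd1, also called, hold none of these motifs and are not shown. Each is the stretch of 250 bases before the gene's start in the RefSeq annotation of mouse GRCm38.p6, read 5′ to 3′ along the gene, with capitals for the motif CAGCTG, for the motif CAGGTG and for CACCTG, the same motif on the other strand.

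Chrna1, chr2:73580339-73580588, minus strand: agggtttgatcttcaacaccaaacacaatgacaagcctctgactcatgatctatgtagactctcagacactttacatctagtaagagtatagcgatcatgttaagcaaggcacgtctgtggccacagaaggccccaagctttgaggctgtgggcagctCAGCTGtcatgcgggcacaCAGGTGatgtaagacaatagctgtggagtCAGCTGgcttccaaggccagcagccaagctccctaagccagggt
Mylpf, chr7:127211358-127211607, plus strand: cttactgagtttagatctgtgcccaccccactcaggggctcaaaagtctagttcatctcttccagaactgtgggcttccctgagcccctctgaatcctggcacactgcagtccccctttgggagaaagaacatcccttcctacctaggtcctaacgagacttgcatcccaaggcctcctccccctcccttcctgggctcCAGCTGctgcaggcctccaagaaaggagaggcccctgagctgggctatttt
Myl1, chr1:66945057-66945306, minus strand: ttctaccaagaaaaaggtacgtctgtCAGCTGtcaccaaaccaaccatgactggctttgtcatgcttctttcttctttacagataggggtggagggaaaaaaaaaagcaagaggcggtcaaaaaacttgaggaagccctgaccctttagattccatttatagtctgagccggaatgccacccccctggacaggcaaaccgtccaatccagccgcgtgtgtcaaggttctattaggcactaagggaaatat
Tnnt1, chr7:4515976-4516225, minus strand: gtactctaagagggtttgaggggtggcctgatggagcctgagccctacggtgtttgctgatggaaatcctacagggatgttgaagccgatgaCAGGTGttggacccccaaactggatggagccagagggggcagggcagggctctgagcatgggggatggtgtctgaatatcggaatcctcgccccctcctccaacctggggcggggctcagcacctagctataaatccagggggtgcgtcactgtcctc
Tnnc2, chr2:164779735-164779984, minus strand: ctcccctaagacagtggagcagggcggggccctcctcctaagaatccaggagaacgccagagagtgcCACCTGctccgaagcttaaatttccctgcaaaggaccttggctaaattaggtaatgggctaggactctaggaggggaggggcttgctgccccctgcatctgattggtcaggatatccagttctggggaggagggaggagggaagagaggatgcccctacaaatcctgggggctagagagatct
Raly, chr2:154790860-154791109, plus strand: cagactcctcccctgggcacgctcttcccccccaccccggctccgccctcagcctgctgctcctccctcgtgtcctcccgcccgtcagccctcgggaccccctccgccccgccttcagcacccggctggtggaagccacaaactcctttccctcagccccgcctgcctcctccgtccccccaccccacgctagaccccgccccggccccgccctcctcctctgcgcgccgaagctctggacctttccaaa

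Chrna1 holds 3 of these motifs, CAGCTG with its first base at positions -92 and -44 from the start and CAGGTG at -73. Mylpf and Myl1 hold CAGCTG at -51 and -224, Tnnt1 holds CAGGTG at -158, Tnnc2 holds CACCTG at -183, and none of these letters are in the Raly window. Over windows of 300 bases, from 250 before to 50 after the start, CAGCTG was in 3 of the 16 genes called higher with MyoD that have a promoter in the table (18.75%), in 17.4% of the 5069 tested genes with a promoter and in 18.3% of all 27025 genes. The motif CAGGTG, which reads CACCTG on the other strand, was in 5 of the 16 (31.25%), against 20.8% of the tested genes and 22.6% of all genes. These were the muscle genes Chrna1, Tnnt1 and Tnnc2, and the non-muscle genes Prss2 and Ramp3, whose windows are not shown. The loose form CANNTG, which includes both, was in 13 of the 16 (81.25%), against 67.1% of the tested genes and 75.0% of all genes. Of the 6 genes called higher with myogenin that have a promoter there, 0 held CAGCTG, 0 held CAGGTG and 2 held CANNTG (33.3%). Both strands were searched, no difference between these shares was tested, and a match describes the letters and not a bound site.

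The probe sets of the factors were read first, as a check of the labels. The Myod1 probe set had deposited signals of 54.1, 52.4 and 41.3 in the MyoD arrays and 84.4, 89.1 and 100 in the myogenin arrays, with a difference, MyoD minus myogenin, of -0.60 ± 0.27 on the log2 scale (adjusted p = 0.351). Differences here and below are of mean quantile-normalised log2(signal + 6.3), ± the standard error, with n = 3 arrays a group, and they understate the change where a signal is low. The MyoD arrays therefore stood below the myogenin arrays for the transcript they are labelled with, without overlap but short of the threshold. Myod1 differed from hrGFP by 0.01 ± 0.27 with MyoD and by 0.61 ± 0.27 with myogenin (adjusted p = 0.417), and neither passed. This probe set thus did not set the MyoD arrays above the control cells, so it does not check their label. The groups are named by their labels throughout. The sources used here do not say whether the probes lie in the part of the gene that the virus carries.

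Myog, the gene of myogenin, had signals of 443, 409 and 165 with MyoD and of 89.2, 89.8 and 122 with myogenin. MyoD replicate 5 was the lowest of its group and still above all 3 myogenin arrays. The difference was 1.76 ± 0.47 (adjusted p = 0.161), and without the arrays numbered 5 it was 2.29 and passed (adjusted p = 0.0152). Against hrGFP, Myog differed by 2.87 with MyoD (adjusted p = 0.0167) and by 1.12 with myogenin (adjusted p = 0.386). The myogenin arrays thus did not pass against hrGFP for the transcript they are labelled with. Whether the Myog probes lie in the part that the virus carries was not tested. Between MyoD and myogenin, Myf5 differed by -0.13 ± 0.37 and Myf6, the fourth member of the family, by -0.01 ± 0.47, with arrays that overlap in both. Mef2a, a MADS-box partner of the family, gave 123, 136 and 180 with MyoD against 46.3, 90.4 and 81.5 (difference 1.15 ± 0.27, adjusted p = 0.131). Of the 17 myogenic transcription factor genes tested, 0 were called, and 4 passed an unadjusted p under 0.05, 2 in each direction (Mef2a and Myog, and Eya1 and Myod1), against 7.87% of all genes higher with MyoD and 5.93% higher with myogenin. Their median difference was -0.04, beside 0.02 over all 6278 genes tested.

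The troponins are the calcium switch of the thin filament, and actin is its backbone. Tnnt1, the slow skeletal troponin T, had signals of 76.8, 102 and 153 with MyoD and of 6.1, 5.6 and 6.62 with myogenin. All 3 myogenin arrays lay near the hrGFP arrays, at 4.24, 2.48 and 7.9. The difference was 3.31 ± 0.26 (adjusted p = 0.000203), it passed in all 16 alternatives, and with the batch as a random block its adjusted p was 0.00346. A second Tnnt1 probe set differed by 0.35 and was not called.

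Actc1, the actin of heart that developing skeletal muscle also makes, gave 459, 345 and 287 with MyoD and 11.9, 11.1 and 53.9 with myogenin. Myogenin replicate 6 stood above the other two, and every MyoD array above all of them. The deposited values of myogenin replicates 2 and 3 carry 1 decimal and those of replicate 6 do not. The part of this in the spread of the group was not tested. The difference was 3.90 ± 0.50 (adjusted p = 0.00733, and 0.0817 with the batch block). The other Actc1 probe set, which may also detect related actins, differed by 0.75 and was not called.

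Tnnc1, the calcium-binding troponin of slow and cardiac muscle, gave 661, 542 and 539 with MyoD and 41.4, 64.6 and 135 with myogenin. Tnnt3, the fast skeletal troponin T, gave 191, 285 and 210 against 24.1, 31.8 and 105. In both genes myogenin replicate 6 was the highest of its group. The differences were 3.02 ± 0.44 for Tnnc1 (adjusted p = 0.0174) and 2.38 ± 0.46 for Tnnt3 (adjusted p = 0.0497). Tnnc2, the fast troponin C, gave 91.8, 114 and 195 with MyoD against 39.9, 34.3 and 35.8 with myogenin, a difference of 1.81 ± 0.32 (adjusted p = 0.0400).

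Acta1, the skeletal muscle actin, gave 1338, 1126 and 721 with MyoD and 86.7, 238 and 326 with myogenin. The groups did not overlap, and the difference of 2.44 ± 0.67 did not pass (adjusted p = 0.175). Counted with 1 probe set a gene, the one of highest mean, 3 of the 11 thin filament genes tested were called, all higher with MyoD, against 0.239% of all genes in that direction; Actc1 and Tnnt1 are not among these 3, since their called probe sets are not the ones of highest mean. The median difference of the 11 was 1.48, and it was 1.36 with no normalization and 1.64 with median scaling. Tpm1 and Tpm3, tropomyosins that non-muscle cells also make, differed by -0.40 and -0.35 without passing.

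**Figure D2:**
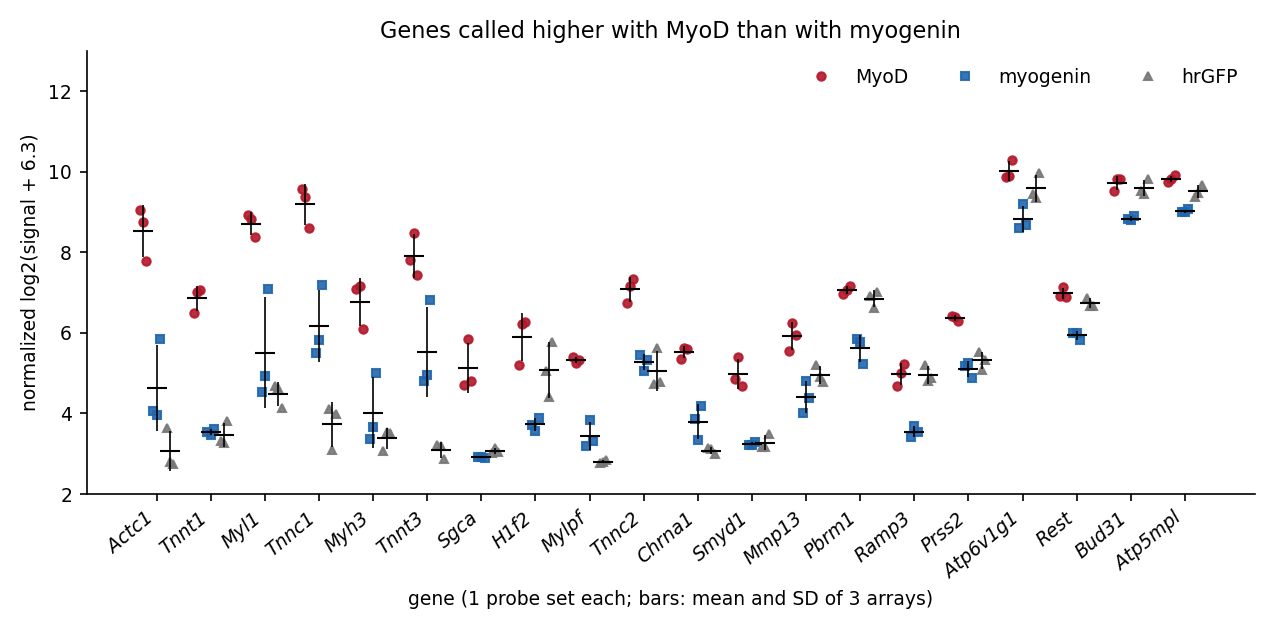
Normalised log2(signal + 6.3) in each MyoD, myogenin and hrGFP array for the 20 genes called higher with MyoD, with the mean and SD of 3 arrays as bars. From Actc1 to Tnnt3 the MyoD points lie far above both other groups and 1 myogenin array lies above its group in all but Tnnt1, while from Pbrm1 and Ramp3 on, apart from Prss2, the MyoD points lie near the hrGFP points.

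In the thick filament, Myl1, a fast skeletal myosin light chain, had signals of 418, 365 and 453 with MyoD and of 18.8, 31.1 and 126 with myogenin. The difference was 3.20 ± 0.51 (adjusted p = 0.0236). Myh3, the embryonic myosin heavy chain, gave 116, 112 and 66.4 against 4.5, 7.6 and 28.4, a difference of 2.76 ± 0.44 (adjusted p = 0.0236). Myogenin replicate 6 was again the highest of its group in both, and it did not reach the lowest MyoD array.

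Mylpf, the fast regulatory light chain, was called through 1 of its probe sets, with 34.1, 25.9 and 33.4 against 3.1, 9.7 and 3.89 (difference 1.87 ± 0.29, adjusted p = 0.0236). Its brighter probe set gave 140, 137 and 151 against 61.4, 80.1 and 131, and its difference of 0.85 ± 0.37 did not pass. Myl4, a light chain of embryonic muscle and atrium, gave 335, 326 and 206 with MyoD and 45.8, 87.7 and 256 with myogenin. There myogenin replicate 6 lay inside the MyoD range, and the difference was 1.55 ± 0.57 (adjusted p = 0.278). Of 10 thick filament genes tested, 2 were called higher with MyoD, against 0.239% of all genes, and 8 were not called. Myh3, 1 of the 2, would not have passed the filter without the MyoD arrays. The median of the 10 was 0.81. It was 0.53 with no normalization and 0.81 with median scaling.

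Only probe sets with a signal above 15 in at least 3 of the 12 arrays were tested. Of the 22 called higher with MyoD, 7 would not have passed this filter without the MyoD arrays, which holds for 204 of all tested. These 7 are Actc1, Tnnt1, Myh3, Sgca, Mylpf, Chrna1 and Smyd1. Entering the test in this way favours a higher level with MyoD, though it does not fix the direction.

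At the membrane, Sgca, the alpha subunit of the sarcoglycan complex that ties dystrophin to the sarcolemma, gave 19.1, 42.2 and 20.8 with MyoD and 1.4, 1.3 and 1.07 with myogenin. The difference was 2.21 ± 0.34 (adjusted p = 0.0236), and a second probe set differed by 1.08 without passing. Of the 25 adhesion, fusion and dystrophin complex genes tested, 0 were called by the probe set of highest mean, with a median of 0.00.

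Chrna1, the alpha subunit of the muscle acetylcholine receptor, gave 32.7, 35.8 and 41.9 with MyoD and 9.4, 4.3 and 13.2 with myogenin. The difference was 1.73 ± 0.32 (adjusted p = 0.0480). Its partner subunit Chrnb1 gave 112, 87.5 and 218 against 55.4, 94.1 and 103, with groups that overlap in deposited signal but not after normalization, and a difference of 0.76 ± 0.30 (adjusted p = 0.307). Erbb3, a neuregulin receptor, gave 49.1, 55.9 and 109 against 16.3, 18.4 and 21.2, without overlap, and its difference of 1.77 ± 0.38 did not pass (adjusted p = 0.0898). Chrna1, which passed the filter only through the MyoD arrays, was the 1 gene called of 12 tested in the neuromuscular junction list, against 0.239% of all genes called higher with MyoD, and the median was 0.36.

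Smyd1, a histone methyltransferase of heart and skeletal muscle, gave 21.6, 29.6 and 18.4 with MyoD and 3.4, 3.5 and 3.8 with myogenin (difference 1.72 ± 0.30, adjusted p = 0.0358). A second Smyd1 probe set went the other way, by -0.65, and was not called.

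No gene was called in 3 further muscle lists, and differences between lists were not tested. For calcium handling it was 0 of 12, with a median of 0.37, and Ryr1, the calcium release channel of the sarcoplasmic reticulum, gave 38.7, 39.9 and 30.9 with MyoD against 11.7, 2.9 and 20.7 with myogenin (1.58 ± 0.37, adjusted p = 0.135). For the Z-disc and sarcomere scaffold it was 0 of 12, with a median of -0.04, and for muscle energy metabolism 0 of 13, with a median of -0.10. In the last of these Ckm, the muscle creatine kinase, had 6.37, 5.58 and 20.4 with MyoD against 37.1, 30.4 and 41.2 with myogenin (-1.20 ± 0.31, adjusted p = 0.157).

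**Figure D3:**
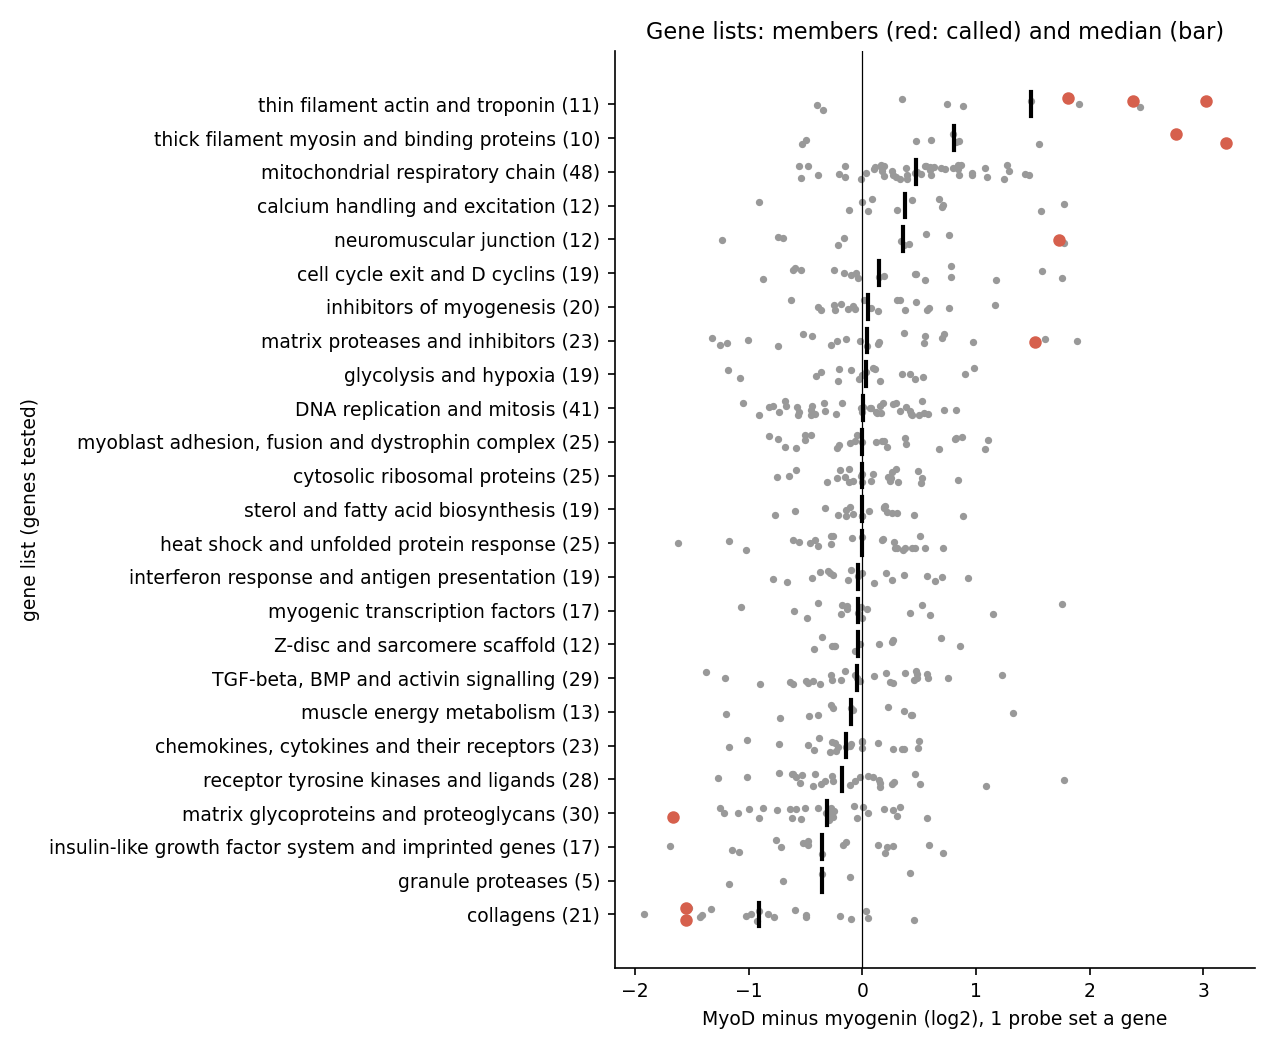
Difference between MyoD and myogenin (log2, horizontal axis) for the tested members of each gene list, 1 probe set of highest mean per gene, with the median as a black bar and called genes in red. The thin and thick filament lists have the highest medians, 1.48 and 0.81, and the collagens the lowest, -0.91.

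Of the extracellular matrix genes, Col1a1, Col6a3 and Hspg2 were called higher with myogenin and Mmp13 higher with MyoD. Col1a1, a chain of type I collagen, had signals of 811, 888 and 942 with MyoD and of 2585, 2598 and 2022 with myogenin in its brighter probe set. The difference was -1.55 ± 0.26 (adjusted p = 0.0274), and the second probe set differed by -2.44 ± 0.34 (adjusted p = 0.0158). Both probe sets thus place every myogenin array above every MyoD array. Col6a3, a chain of type VI collagen, gave 217, 245 and 565 with MyoD against 817, 1125 and 849 with myogenin (-1.55 ± 0.24, adjusted p = 0.0236). MyoD replicate 5 was the highest of its group, and without the arrays numbered 5 the difference was -1.72.

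The partner chains Col6a1 and Col6a2 had differences of -1.53 ± 0.35 (adjusted p = 0.126) and -1.92 ± 0.50 (adjusted p = 0.154), and their arrays did not overlap. Of 21 collagens and collagen-processing enzymes tested, 2 were called higher with myogenin, against 0.112% of all genes. A further look at the list without adjustment found 11 with a p under 0.05, all higher with myogenin, against 5.93% of all genes in that direction. In 13 the groups did not overlap, all higher with myogenin, against 641 of all 6278 genes in that direction. The median was -0.91, with -0.87 under no normalization, -0.60 under median scaling and -0.68 without the arrays numbered 5. Col3a1, the type III collagen gene, differed by 0.45 and was not called.

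Hspg2 codes for perlecan, a proteoglycan of basement membranes. It gave 84.9, 58.5 and 48.3 with MyoD against 273, 191 and 240 with myogenin, a difference of -1.66 ± 0.31 (adjusted p = 0.0480). It was the 1 gene called of 30 matrix glycoproteins and proteoglycans, against 0.112% of all genes called higher with myogenin. Their median was -0.31, with 23 of the 30 lower and 7 higher with MyoD. In the opposite direction, Mmp13, a collagenase, gave 38.8, 58.0 and 57.9 with MyoD against 11.1, 27.8 and 16.2 with myogenin (1.52 ± 0.27, adjusted p = 0.0405). It was the 1 gene called of 23 matrix proteases and inhibitors, against 0.239% of all genes called higher with MyoD, and the median was 0.04. Mmp3, another matrix metalloproteinase, differed by 1.61 ± 0.35 without passing (adjusted p = 0.0898).

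Markers of other cell types were read beside the matrix genes. The summed normalised signal of 10 fibroblast markers, which include the collagen genes Col1a1, Col1a2 and Col3a1, was 6238 to 7508 in the MyoD arrays, 9311 to 11781 in the myogenin arrays and 7124 to 8313 in the hrGFP arrays, and 0 of the 10 were under the filter signal in all 6 arrays compared. Without these collagens, the sum of the other 7 was 4251 to 5290 with MyoD, 5053 to 5565 with myogenin and 4644 to 6012 with hrGFP, and the groups overlap. Of the 9 fibroblast markers tested, Col1a1 was the 1 called, and the median difference was -0.47, or -0.17 without the arrays numbered 5. The summed signal of 7 smooth muscle markers was 1487 to 3457 with MyoD and 3971 to 4746 with myogenin, with Myh11 and Cnn1 under the filter signal in all 6. The part of these cell types in the matrix result was not tested. Of 10 macrophage and leukocyte markers, Cd3e, Adgre1, Itgam, Ptprc and Lyz2 were under it in all 6 arrays, as were Pecam1, Vwf, Tek, Tie1 and Cdh5 of 7 endothelial markers and Krt8, Krt5, Krt14, Epcam and Cldn4 of 7 epithelial markers. In the same lists, 5 macrophage and leukocyte, 2 endothelial and 2 epithelial markers passed the filter, and 0 were called. The absence of these cell types is therefore not shown.

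Raly codes for an RNA-binding protein of the heterogeneous nuclear ribonucleoprotein family. Its signals were 27.7, 23.7 and 20.9 with MyoD and 220, 203 and 171 with myogenin. The groups lay far apart and were each tight, and the difference was -2.61 ± 0.27 (adjusted p = 0.00148). It passed in all 16 alternatives, with an adjusted p of 0.0307 under the batch block. That block cannot remove a shift shared by all 3 myogenin arrays. Anp32a, an acidic nuclear phosphoprotein that binds histones, gave 27.1, 16.0 and 6.68 with MyoD against 116, 167 and 158 with myogenin (-2.67 ± 0.51, adjusted p = 0.0497). Its second probe set differed by 0.30 in the other direction and was not called.

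Dlg4, a scaffold protein of synapses, gave 6.27, 2.56 and 2.36 with MyoD and 52.5, 49.0 and 40.8 with myogenin (-2.25 ± 0.36, adjusted p = 0.0236). The homeobox gene Hoxb9, which takes part in patterning along the body axis, gave 5.22, 2.56 and 2.06 against 37.3, 31.3 and 32.1 (-1.88 ± 0.30, adjusted p = 0.0236). Hoxb8, its neighbour in the Hoxb cluster, gave 2.95, 1.34 and 2.88 against 27.5, 24.8 and 51.4 (-2.01 ± 0.37, adjusted p = 0.0480). A second and brighter Hoxb8 probe set gave 46.3, 43.7 and 33.8 against 89, 110.8 and 97.0, and its difference of -0.93 ± 0.30 did not pass (adjusted p = 0.233). Each of the 3 called probe sets of Dlg4, Hoxb9 and Hoxb8 was under the filter signal in every MyoD array. None of these 3 would have passed the filter without the myogenin arrays, which holds for 345 of all tested. Such entry favours a higher level with myogenin. A further probe set assigned to both Hoxb8 and Hoxb7 differed by -2.05 ± 0.25 (adjusted p = 0.00585). The last gene of this group, Igh-VS107, is read by a probe set that may detect several immunoglobulin sequences (-1.37 ± 0.26, adjusted p = 0.0497).

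**Figure D4:**
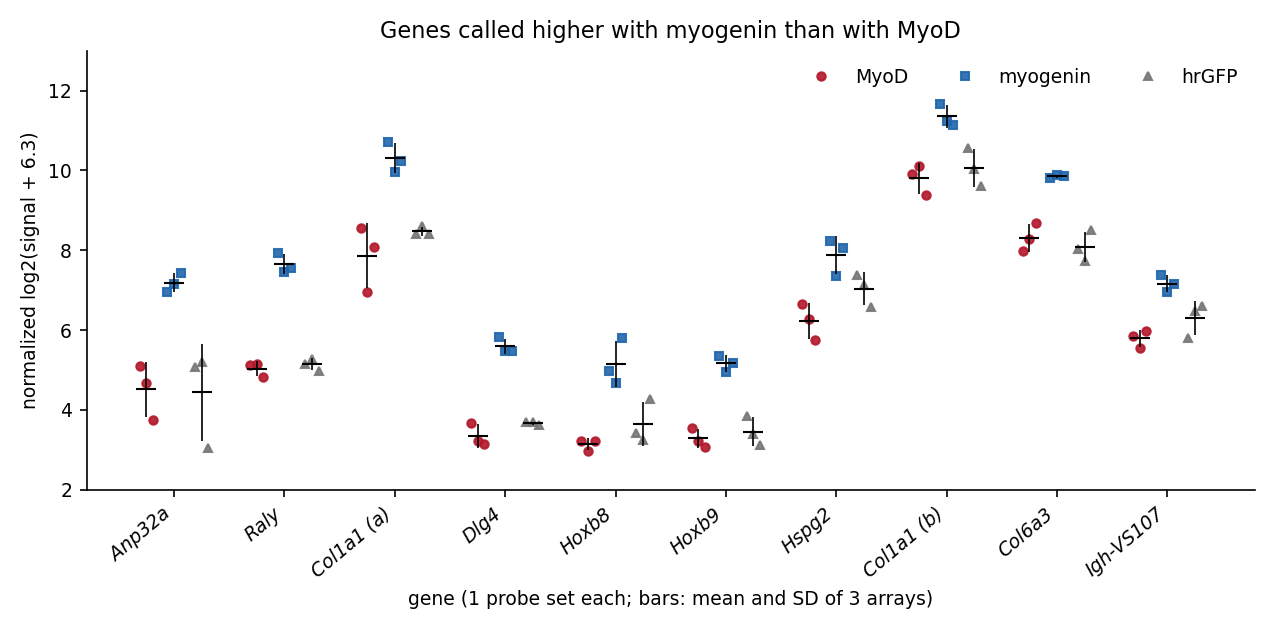
Normalised log2(signal + 6.3) in each MyoD, myogenin and hrGFP array for the 9 genes called higher with myogenin (Col1a1 with both probe sets), with the mean and SD of 3 arrays as bars. The myogenin points lie above every MyoD point in all 10 probe sets, and the mean of the MyoD points lies between 0.81 below and 0.23 above that of hrGFP.

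Each factor was also set beside the hrGFP arrays. Both comparisons share these arrays, so only their values are given; over all probe sets, 0.412% were called for MyoD against hrGFP and 0.13% for myogenin against hrGFP. For the muscle genes the MyoD arrays stood away from hrGFP: Actc1 differed from hrGFP by 5.47 with MyoD and 1.56 with myogenin, Tnnc1 by 5.46 and 2.44, Tnnt3 by 4.82 and 2.43, Myl1 by 4.22 and 1.03, and Tnnt1 by 3.39 and 0.08. The same differences were 3.39 and 0.63 for Myh3, 2.45 and 0.72 for Chrna1, 2.05 and -0.16 for Sgca and 1.70 and -0.02 for Smyd1. Myogenin lay close to hrGFP in Tnnt1, Smyd1 and Sgca, while for Tnnc1 and Tnnt3 its own test against hrGFP gave adjusted p = 0.0543 and 0.0635. Among muscle genes not called between the factors, Chrnb1 differed from hrGFP by 3.81 with MyoD and by 3.04 with myogenin, where it passed (adjusted p = 0.00196). Acta1 differed by 6.20 and 3.76, the latter with an adjusted p of 0.0543.

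For the genes called higher with myogenin, the MyoD arrays lay close to hrGFP in some and below it in others. Raly differed from hrGFP by 2.51 with myogenin and -0.11 with MyoD, Anp32a by 2.74 and 0.07, Col6a3 by 1.77 and 0.23, and Hoxb9 by 1.71 and -0.17. Hspg2 differed from hrGFP by 0.85 with myogenin and -0.81 with MyoD, so its distance from hrGFP was about as large on both sides. The same differences were 1.83 and -0.61 for the second Col1a1 probe set and 0.87 and -0.51 for Igh-VS107. Since the myogenin arrays are a batch of their own, the share of batch in these values cannot be told apart from that of myogenin.

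For the non-muscle genes called higher with MyoD, the myogenin arrays lay below hrGFP, farthest in Ramp3, H1f2 and Pbrm1. Pbrm1, a subunit of a chromatin remodelling complex, had signals of 108, 105 and 169 with MyoD and of 53.5, 62.3 and 33.4 with myogenin (1.45 ± 0.22, adjusted p = 0.0236), and differed from hrGFP by 0.22 with MyoD and by -1.23 with myogenin. Its 3 other probe sets differed between MyoD and myogenin by 0.03 to 0.74 and were not called. Ramp3, a partner protein of the calcitonin receptor-like receptor, differed by 1.42 ± 0.27 (adjusted p = 0.0497), from 0.02 and -1.41 against hrGFP. The linker histone gene H1f2 differed by 2.17 ± 0.38 (adjusted p = 0.0334), from 0.82 and -1.35, so its MyoD arrays lay above hrGFP as well.

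The remaining 5 genes called higher with MyoD had differences of 0.81 to 1.26. Prss2, a trypsin read by a probe set that may detect related trypsins, stood at 1.26, Atp6v1g1, a subunit of the vacuolar proton pump, at 1.19, and Rest, a repressor of neuronal genes, at 1.04. Bud31, a splicing factor, stood at 0.88 and Atp5mpl, a small protein of the mitochondrial ATP synthase, at 0.81. Against hrGFP, MyoD and myogenin differed by 1.05 and -0.21 for Prss2, 0.44 and -0.76 for Atp6v1g1 and 0.24 and -0.80 for Rest. The same differences were 0.13 and -0.76 for Bud31 and 0.31 and -0.49 for Atp5mpl. Rest, Bud31 and Atp5mpl each passed in 1 of the 16 alternatives, as did Ramp3. The probe set with the largest difference of all, 4.39 ± 0.50 (adjusted p = 0.00316), is assigned to both Tmem119 and Igfbp5. Its signals were 588, 969 and 1322 with MyoD and 19, 37.7 and 92.9 with myogenin.

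**Figure D5:**
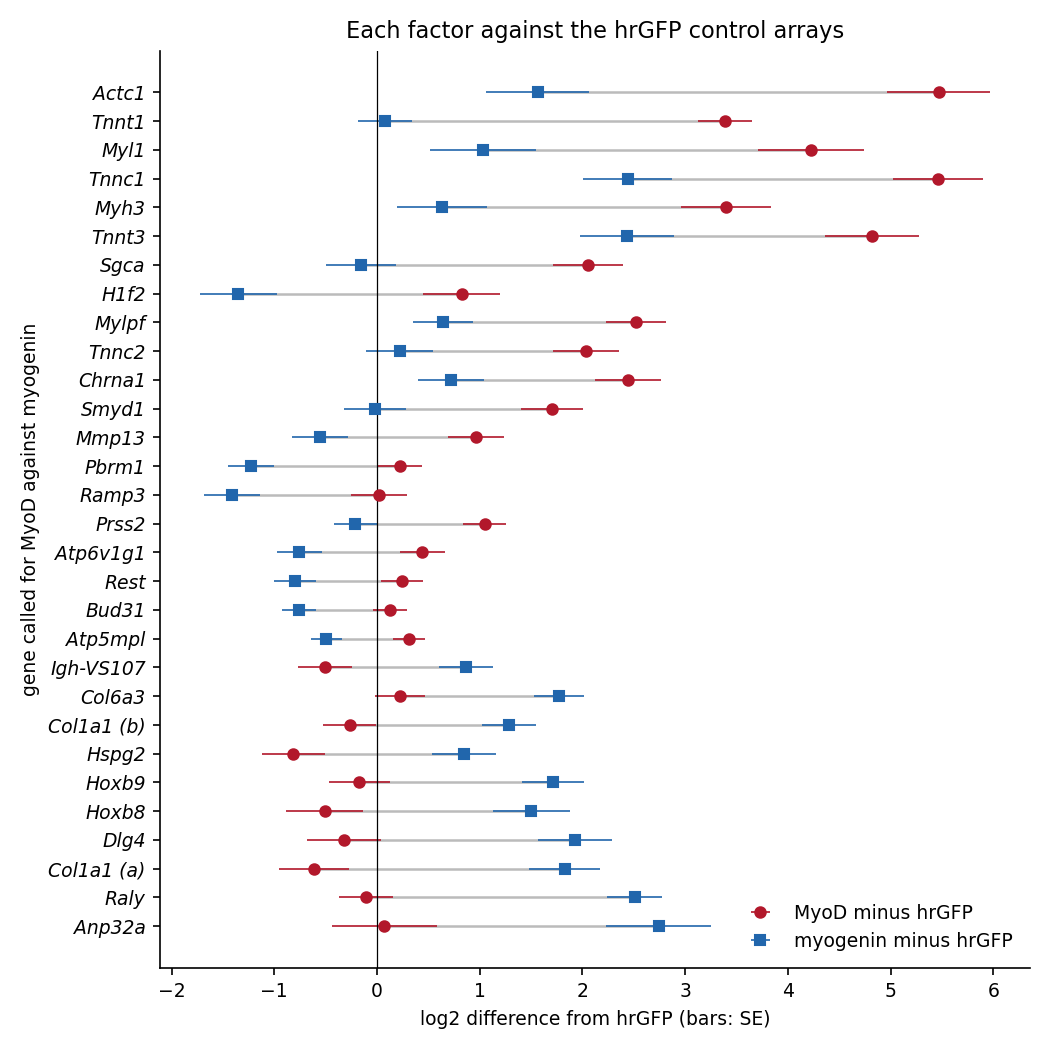
Difference from the hrGFP arrays (log2, horizontal axis, with SE bars) of the MyoD arrays (red circles) and of the myogenin arrays (blue squares) for each named probe set called between MyoD and myogenin. From Actc1 to Smyd1, apart from H1f2, MyoD is the factor farther from 0, and in the genes from Igh-VS107 down it is myogenin.

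The growth factor, cell cycle and inhibitor lists held no call. The called probe set assigned to both Tmem119 and Igfbp5, an insulin-like growth factor binding protein, was not counted in these lists. Igf2, a growth factor of developing muscle, gave 44.4, 29.3 and 96.6 with MyoD and 125, 204 and 264 with myogenin. The groups did not overlap, and the difference was -1.69 ± 0.35 (adjusted p = 0.0777, and 0.0474 without the arrays numbered 5, where it was -1.93). Dlk1, an imprinted membrane protein, differed by -1.15 ± 0.24 (adjusted p = 0.0861). Of the 17 genes of the insulin-like growth factor system and imprinted genes tested, 0 were called, with a median of -0.36. DNA replication and mitosis genes gave 0 calls of 41 with a median of 0.00, inhibitors of myogenesis 0 of 20 with a median of 0.05, and cell cycle exit and D cyclin genes 0 of 19 with a median of 0.15.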

How the data were processed

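RNA was measured on 12 MG_U74Av2 arrays, grouped by their titles. The deposited values are intensity signals that MAS5 computed for each probe set, per the submitters' processing notes, and the version and scaling used were not given in these sources. The mean signal with 2% trimmed from both ends lay between 41.4 and 103 (a ratio of 2.50), which shows no common target. Other information deposited with the arrays, in the experiment files, gave the chip lot and day per the file headers, which form 3 array batches: the 3 myogenin arrays, the arrays of the other groups numbered 3 and 4, and those numbered 5.

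The 66 array controls of 12488 probe sets were left out. A pseudocount of 6.3, the 25th percentile, was added before log2 and quantile normalization in limma 3.58.1 (R 4.3.3, statmod 1.5.0). Probe sets above 15, the 40th percentile, in at least 3 arrays were kept, 8486 in all. The model held 1 mean for each of the 4 groups, over 12 arrays (8 residual degrees of freedom), with a variance trend, p-values were adjusted by Benjamini-Hochberg over the 8486 probe sets, and the code was tested on simulated data. The median of all differences between MyoD and myogenin was 0.00 after quantile normalization, -0.17 with none and 0.10 with median scaling.

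Of 12422 probe sets, 10833 had 1 gene symbol in the platform table, 396 had several and 1193 were not listed. Only the first are named, apart from the probe set assigned to both Hoxb8 and Hoxb7 and that assigned to both Tmem119 and Igfbp5. By gene number, 10817 were found in the RefSeq table of GRCm38.p6, with 0 symbols updated. Promoters are RefSeq's. In lists, the probe set with the highest mean stands for its gene. Genes were named by a rule: in each direction, the 15 largest called differences without overlap between groups, the 4 MyoD family genes, and from each list every called member, filled up to 4 by size; other names were chosen after their values were seen. The members and the 25 gene lists and 9 marker lists were chosen with earlier results of these data known. A comparison of the factors' proteins was not analysed here. The 16 alternatives varied normalization, pseudocount, filter, variance model, batch and the arrays fitted.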

Additional observations from a re-analysis of the deposited data

How the results depend on the processing

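The count of 35 probe sets called between MyoD and myogenin depends on the processing. It was 13 with no normalization between arrays, 18 with median scaling, 7 with no pseudocount and 23 with no filter. It was 3 with the 6 arrays fitted alone, 21 without the arrays numbered 5, and 2 with the array batch as a random block, whose estimated correlation was 0.318. Within 1.5 times of 35 were 33 with a pseudocount of 32, 26 with a stricter filter and 25 without a variance trend. Leaving out each of the 6 arrays in turn gave 3 to 25, and 3 of the 35 passed whichever array was left out. Tnnt1 and Raly passed in all 16 alternatives, and 13 of the 35 passed in at most 3. None of the 35 changed direction in any of the 16. The cause of the lost calls was not tested. Smaller fits also had fewer residual degrees of freedom, 4 with the 6 arrays alone and 5 without those numbered 5, against 8 in the main fit. Single genes named, called or not, stayed on their side of the threshold in 1547 settings, lost the call in 229 and gained it in 6. In 13 more the difference changed sign, only for genes not called in the main fit. The gains were Myog and Igf2 among others, without the arrays numbered 5. List medians moved beyond their spread in 66 of their settings and stayed in 430. No paired analysis was possible because MyoD and myogenin share only replicate number 3. The number of arrays and signals near background limit what small differences can be seen.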

Other observations

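Listed genes of the mitochondrial respiratory chain, which makes the proton gradient and ATP, leaned towards MyoD without a call. Atp5mpl, called higher with MyoD, was not in this list. Of the 48 tested, 0 were called, and 20 had an unadjusted p under 0.05 with a higher level with MyoD, against 7.87% of all genes in that direction. In 25 of the 48 the 3 MyoD arrays lay above the 3 myogenin arrays, against 760 of all 6278 genes in that direction. The median difference was 0.47 beside 0.02 over all genes, with 0.45 under no normalization, 0.73 under median scaling and 0.41 without the arrays numbered 5. Ndufc1, a subunit of complex I, had deposited signals of 266, 337 and 725 with MyoD and of 105, 244 and 134 with myogenin. The groups did not overlap, and the difference was 1.43 ± 0.29 (adjusted p = 0.0770 in limma). Uqcrh, a subunit of complex III, gave 646, 1012 and 2189 against 301, 551 and 428 (1.47 ± 0.35, adjusted p = 0.134). In both genes MyoD replicate 5, the array with the 3'-biased target, was the highest. The median of the list against hrGFP was 0.30 with MyoD and -0.16 with myogenin.

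Since 2 genes of the Hoxb cluster were called higher with myogenin, all Hox genes were listed after those values were seen. Of 23 tested, 14 were higher with myogenin and 9 higher with MyoD, with a median difference of -0.09. In the Hoxb cluster 7 of 9 were higher with myogenin, with a median of -0.09. These counts use the brighter Hoxb8 probe set, which differed by -0.93 and was not called, beside -2.01 for the dimmer one and -1.88 for Hoxb9. Hoxb7, through its own probe set, differed by -0.02, Hoxb6 by -0.05 and Hoxb4 by 0.77. Hoxd9 differed by -1.10 and Hoxa7 by 1.26, and neither was called.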
